A study of Mus musculus with 24 samples.

Results

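The lingual part of the dental mesenchyme was followed in vivo from the cap stage (E13, Cap-L) to the bell stage (E15, Bell-L), in 3 libraries per stage. These 6 libraries are all those of the lingual part that were sequenced without culture, of 24 libraries in 8 groups of 3, and were selected by their labels and column names. Embryos were ICR mice, and none of the groups carried a treatment or a targeted allele. First mandibular molar germs were split with a 30 gauge needle into the parts that face the tongue (lingual) and the cheek (buccal), and the epithelium was taken off with dispase II. The days of gestation come from the study's methods, where the labels give the stage alone. Germs of several embryos were pooled, so the libraries cannot be traced to single embryos, and no label states that they came from separate litters. The study's methods name 3 pregnant mice, and speak both of triplicates and of 2 biological replicates. The p-values below thus weigh a change against the spread between libraries, which may be technical. For comparison, the buccal part was available at both stages (Cap-B, Bell-B), as was the lingual part of the cap stage after 2 days in vitro (Cap-L+2D).

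A molar begins as a thickening of the oral epithelium, which buds into the mesenchyme beneath it. At the cap stage the epithelium folds around a condensed dental papilla, and a signaling center in it, the enamel knot, secretes Shh, FGFs, BMPs and Wnts. At the bell stage the cusps take shape, while the mesenchyme divides into the papilla, which later gives dentin and pulp, and the follicle, which later gives cementum, ligament and part of the alveolar bone. The inductive capacity to start a tooth lies in the mesenchyme around the cap stage.

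The authors' table held counts of read pairs for 56748 genes. Totals were 27164279 to 35222686 counts in Cap-L and 26288515 to 29966544 in Bell-L. Values are given as normalised CPM, which are counts scaled to the library total and by edgeR's TMM factors, and a library's floor of 3 counts was 0.0835 to 0.107 CPM in Cap-L and 0.0996 to 0.114 in Bell-L. The log2 fold change (log2FC) is that of Bell-L over Cap-L and is below 0 for a gene with more expression at the cap stage. A value after ± is the SD over the libraries of a group (n = 3). A gene was called when the adjusted p of edgeR's quasi-likelihood test was under 0.05 and its absolute log2 fold change was over 0.5. Of 20908 genes tested, 2937 (14.0%) were called higher at the bell stage and 1235 (5.91%) higher at the cap stage, together 20.0%. The counts of called list members below are to be read against these shares. The change over all tested genes had a median of -0.0057 on the log2 scale. Among called genes, 451 of the rising and 61 of the falling genes had an absolute log2 fold change over 2. The libraries of the stages did not overlap in 11795 genes, or 56.4% of those tested, so that lack of overlap was common in these libraries and is given below as a description. Genes of the dental mesenchyme were present in each of the 6 libraries: Prrx1, a homeobox gene of craniofacial mesenchyme, lay at 1307, 1197 and 1281 CPM in the 3 Cap-L libraries and 819, 881 and 868 in the 3 Bell-L libraries, and Msx1, a homeobox gene required for teeth to pass the bud stage, at 428, 509 and 438 CPM in Cap-L and 367, 354 and 383 in Bell-L. Mitochondrial transcripts made up 3.18% to 3.37% of counts in Cap-L and 3.56% to 3.89% in Bell-L.

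The largest fall among called genes with an average log2 CPM of at least 2 was that of a hemoglobin gene. The alpha and beta globin loci each carry embryonic genes, used by the first red cells from the yolk sac, and adult genes, used by red cells from the fetal liver. To show the gene starts behind this switch, the 110 bases upstream of 6 globin genes are printed from RefSeq (GRCm38.p6, 5′ to 3′ on the gene's strand), with the CCAAT box, a promoter element of many globin genes, and the letters CCACACCC of the CACCC box in capitals. CCAAT was searched on both strands, so that ATTGG is its reverse complement. Embryonic genes come first.
Hbb-y (chr7:103853208-103853317, minus strand): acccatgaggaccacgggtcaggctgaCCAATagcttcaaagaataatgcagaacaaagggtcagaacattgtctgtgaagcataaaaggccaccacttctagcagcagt
Hba-x (chr11:32276490-32276599, plus strand): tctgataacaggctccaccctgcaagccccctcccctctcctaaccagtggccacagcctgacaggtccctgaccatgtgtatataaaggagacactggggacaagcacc
Hbb-bs (chr7:103827929-103828038, minus strand): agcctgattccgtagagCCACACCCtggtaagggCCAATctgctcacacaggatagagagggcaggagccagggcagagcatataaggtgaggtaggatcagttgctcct
Hbb-bt (chr7:103813924-103814033, minus strand): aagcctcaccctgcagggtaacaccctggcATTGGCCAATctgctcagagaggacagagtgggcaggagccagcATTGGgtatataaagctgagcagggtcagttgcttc
Hba-a1 (chr11:32283562-32283671, plus strand): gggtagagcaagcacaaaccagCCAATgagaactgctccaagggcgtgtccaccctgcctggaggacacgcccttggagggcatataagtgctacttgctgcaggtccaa
Hba-a2 (chr11:32296382-32296491, plus strand): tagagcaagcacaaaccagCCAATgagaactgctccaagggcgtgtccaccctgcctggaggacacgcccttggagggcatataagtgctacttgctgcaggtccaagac
CCAAT was found in 5 of the 6 windows, all but that of Hba-x, and in 6627 (20.2%) of 32851 promoter windows of the same length. CCACACCC was found in Hbb-bs alone, and in 556 (1.69%) of all windows. These matches are a description of letters.

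The embryonic genes fell and the adult genes rose. Hbb-y (ENSMUSG00000052187, chromosome 7, 103500956 to 103502423), the embryonic epsilon-type beta globin, measured 397, 444 and 392 CPM in Cap-L and 12.7, 11.6 and 13.2 in Bell-L. Each cap library was far above each bell library (log2FC -5.04, SE 0.068, edgeR adjusted p = 1.13e-25). Hba-x, the embryonic zeta globin, measured 33.8, 44.8 and 38.2 CPM in Cap-L and 3.69, 2.77 and 3.22 in Bell-L (log2FC -3.59, SE 0.11, edgeR adjusted p = 9.96e-16). The embryonic beta globin Hbb-bh1 fell from 5.97 ± 0.209 to 0.403 ± 0.0883 CPM (log2FC -3.86, SE 0.18, edgeR adjusted p = 4.11e-15). In the adult direction, Hbb-bs measured 635, 804 and 665 CPM in Cap-L and 2029.8, 1947 and 1914 in Bell-L. The second cap library held the most Hbb-bs of its group and still lay below all bell libraries (log2FC 1.49, SE 0.068, edgeR adjusted p = 8.08e-14). Hbb-bt, Hba-a1 and Hba-a2 rose with log2FC values of 1.45, 1.13 and 1.11 (edgeR adjusted p = 3.98e-15, 3.37e-12 and 1.37e-13). Hba-a1 with Hba-a2, and Hbb-bs with Hbb-bt, are near-identical copies, and since read pairs that mapped to several places were left out of the counts, the split between them is uncertain. Alas2, the erythroid enzyme that starts heme synthesis, rose from 16.4 ± 1.29 to 40.5 ± 0.994 CPM (log2FC 1.3, SE 0.064, edgeR adjusted p = 1.05e-14). Over the 12 erythroid genes listed, 11 were tested, 6 rose and 3 fell, and their summed level was 2917 to 3604 CPM in Cap-L and 6454 to 6779 in Bell-L. In libraries of whole tissue, fewer cells of a type and less RNA per cell cannot be told apart, which holds for every gene and marker list that follows.

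**Figure D1:**
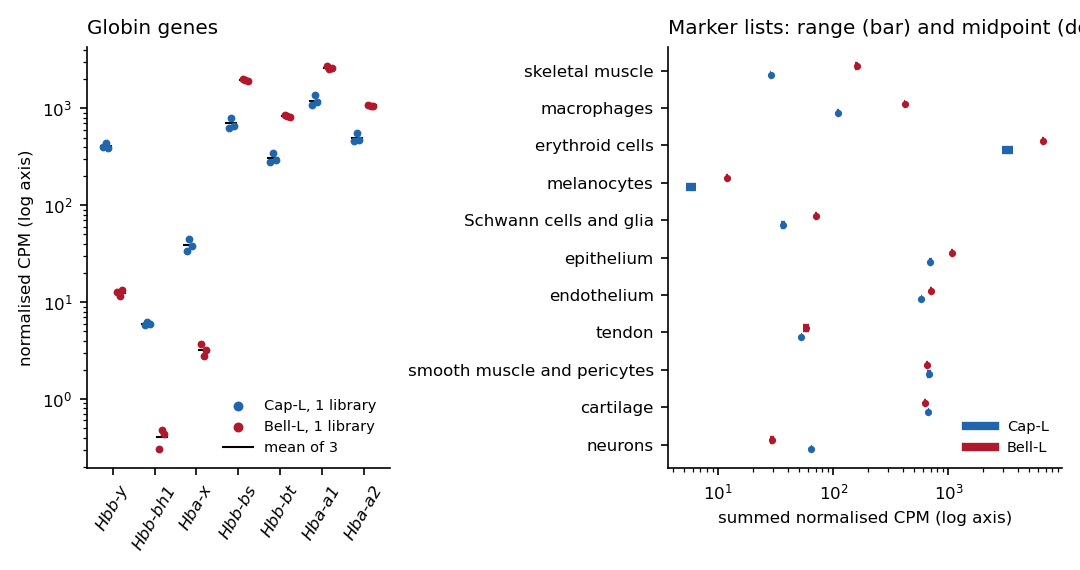
Left, normalised CPM (log axis) of 7 globin genes in each of the 3 Cap-L (blue) and 3 Bell-L (red) libraries, with the mean of each group as a line. Right, the range of the summed CPM of each marker list over 3 libraries (bar, log axis) with its midpoint (dot). The 3 embryonic globins sit lower at the bell stage and the 4 adult globins higher, and the skeletal muscle list moved furthest of the marker lists.

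Hedgehog signaling changed both in its ligands and in its target genes. Shh from the dental epithelium binds its receptor Ptch1, which frees Smo and lets the Gli factors act, and Ptch1, Hhip and Gli1 are themselves targets of the pathway. Of the 14 genes tested, 6 rose, 2 fell and 6 were not called, against 14.0% and 5.91% of all genes, with a median log2FC of 0.42. Of the ligands, Shh (ENSMUSG00000002633, chromosome 5, 28661813 to 28672254) measured 0.179, 0.25 and 0.282 CPM in Cap-L, above the floor, and 12.9, 13.7 and 15.1 in Bell-L. Its bell libraries were far above its cap libraries (log2FC 5.85, SE 0.17, edgeR adjusted p = 1.75e-19), and 15.7% of its exon bases overlap another gene. Ihh, a ligand known for its role in cartilage and bone, went the other way, from 2.56 ± 0.0436 to 0.43 ± 0.039 CPM (log2FC -2.56, SE 0.22, edgeR adjusted p = 3.22e-10). Dhh, the ligand of Schwann cells, rose from 0.0845 ± 0.0232 to 0.405 ± 0.0292 CPM (log2FC 2.18, SE 0.48, edgeR adjusted p = 0.000566), from near the floor. Of the receptors, Ptch1 measured 267, 238 and 284 CPM in Cap-L and 592, 602 and 593 in Bell-L, and its groups did not overlap (log2FC 1.18, SE 0.056, edgeR adjusted p = 5.31e-15). Hhip, a decoy receptor that binds the ligands, measured 5.51, 4.42 and 4.52 CPM in Cap-L and 50.5, 53 and 54.2 in Bell-L, and its bell libraries were all higher (log2FC 3.46, SE 0.078, edgeR adjusted p = 1.27e-21). The activator Gli1 rose from 123 ± 2.1 to 267 ± 2.99 CPM (log2FC 1.12, SE 0.046, edgeR adjusted p = 2.76e-16), whereas Gli2 fell from 141 ± 12.2 to 93.4 ± 2.65 (log2FC -0.59, SE 0.056, edgeR adjusted p = 3.03e-09). Gli3, Smo, Sufu, Gas1, Cdon and Boc were not called, with log2 fold changes from -0.30 to 0.45. Of the epithelial markers, a list that holds Shh itself, 8 of 15 tested rose and 7 were not called, against 14.0% of all genes rising. Their summed level was 672 to 712 CPM in Cap-L and 1054 to 1096 in Bell-L, and none was at 0 in all libraries of a stage. Their part in the Shh value was not tested.

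**Figure D2:**
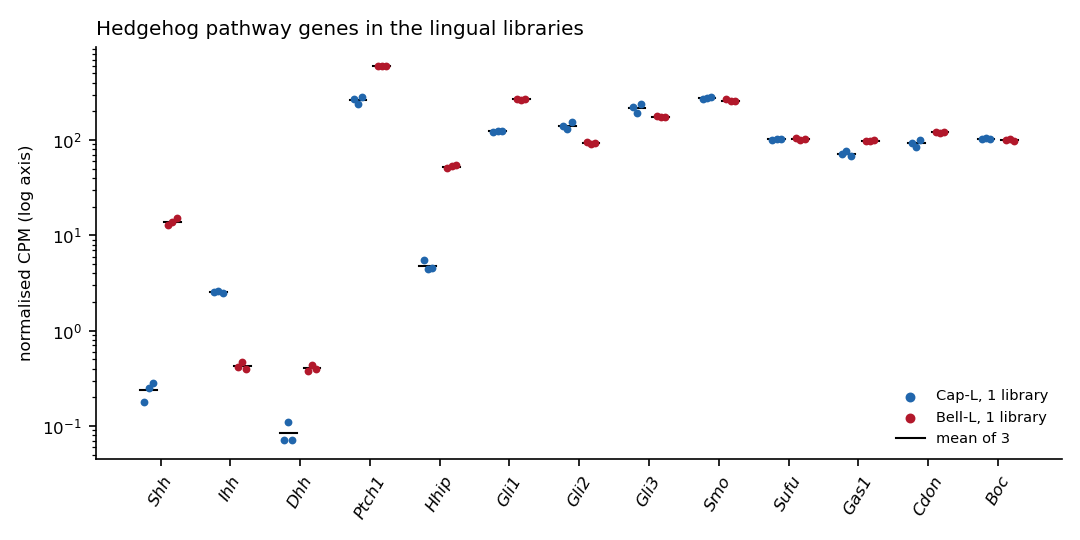
Normalised CPM (log axis) of 13 Hedgehog pathway genes in each Cap-L (blue) and Bell-L (red) library, with group means as lines. Shh, Dhh, Ptch1, Hhip and Gli1 lie higher in all 3 bell libraries, Ihh and Gli2 lie lower, and Smo and Sufu overlap.

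Many genes of the extracellular matrix rose. Fibrillar collagens give tissues their tensile strength, and small leucine-rich proteoglycans bind the fibrils and set their spacing. Of 28 leucine-rich proteoglycans and matricellular proteins tested, 21 rose and 2 fell, with a median log2FC of 1.04 and a summed level of 6335 to 6480.3 CPM in Cap-L and 10905 to 11048 in Bell-L. Ogn (ENSMUSG00000021390, chromosome 13, 49761522 to 49777977), the proteoglycan osteoglycin, measured 55.1, 59.8 and 57.4 CPM in Cap-L and 429.6, 475 and 467 in Bell-L, with no overlap (log2FC 3.0, SE 0.056, edgeR adjusted p = 2.36e-23). Omd, osteomodulin, measured 12.1, 12.4 and 11.6 CPM in Cap-L and 87.5, 97.9 and 93.7 in Bell-L (log2FC 2.95, SE 0.061, edgeR adjusted p = 2.01e-22). Aspn, asporin, a proteoglycan of the periodontal ligament, measured 79.3, 76.7 and 74.3 CPM in Cap-L and 439.7, 493 and 480.2 in Bell-L (log2FC 2.62, SE 0.055, edgeR adjusted p = 2.87e-22). These 3 genes are neighbours on chromosome 13, and each of their bell libraries exceeded every cap library. Thbs4, a matricellular thrombospondin of tendon and muscle attachments, rose from 20.9 ± 0.552 to 156 ± 3.77 CPM (log2FC 2.91, SE 0.053, edgeR adjusted p = 1.41e-23), and Sparc, a collagen-binding matrix protein, from 632 ± 16.3 to 1706 ± 38.1 (log2FC 1.44, SE 0.05, edgeR adjusted p = 7.3e-18). The members that fell were Tnc and Tnn, both tenascins, and not Tnxb, a further tenascin of the list. Tnc, a matrix protein of condensing mesenchyme, went from 934 ± 40 to 507 ± 6.1 CPM (log2FC -0.88, SE 0.05, edgeR adjusted p = 1.62e-13) and Tnn from 45.5 ± 2.21 to 26.1 ± 0.277 (log2FC -0.80, SE 0.057, edgeR adjusted p = 1.47e-11). Postn, periostin, a matrix protein of the follicle and periosteum, stayed within the limit on the fold, at 2766, 2609 and 2705 CPM in Cap-L and 3395, 3499.7 and 3425 in Bell-L (log2FC 0.36, SE 0.05, edgeR adjusted p = 1.61e-06).

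Of 41 collagen genes tested, 17 rose and 7 fell, with a median log2FC of 0.42. Col1a1 (ENSMUSG00000001506, chromosome 11, 94827050 to 94843868), the main chain of type I collagen in bone, dentin and ligament, measured 2142, 2371 and 2366 CPM in Cap-L and 5096, 4736 and 4844 in Bell-L, with no overlap between the groups (log2FC 1.1, SE 0.054, edgeR adjusted p = 9.75e-15). Col1a2, its partner chain, measured 2872, 3007 and 2962 CPM in Cap-L and 5243, 5073 and 5065 in Bell-L (log2FC 0.80, SE 0.05, edgeR adjusted p = 8.96e-13), and Col3a1, the chain of type III collagen, rose with a log2FC of 0.76 (edgeR adjusted p = 3.16e-12). Other collagens rose by more. Col14a1 measured 7.26, 7.34 and 7.17 CPM in Cap-L and 92.2, 94.8 and 92.9 in Bell-L (log2FC 3.69, SE 0.06, edgeR adjusted p = 4.84e-24), Col5a3 rose from 4.51 ± 0.744 to 37.9 ± 2.31 (log2FC 3.08, SE 0.089, edgeR adjusted p = 2.25e-19) and Col6a6 from 6.46 ± 1.11 to 30.7 ± 0.899 (log2FC 2.27, SE 0.089, edgeR adjusted p = 2.53e-16). Chains of the basement membrane rose too, Col4a1 by 0.56 and Col4a2 by 0.62 log2 (edgeR adjusted p = 6.17e-10 and 2.16e-10). Col8a1, a short-chain collagen, missed the limit on the fold, at 191 ± 5.62 and 268 ± 7.33 CPM (log2FC 0.49, SE 0.048, edgeR adjusted p = 3.83e-09). Cartilage and junction collagens were among those that fell. Col2a1 (ENSMUSG00000022483, chromosome 15, 97873483 to 97902576), the main collagen of cartilage, measured 227, 244 and 241 CPM in Cap-L and 33.1, 30.1 and 29.8 in Bell-L, and its cap libraries all lay higher (log2FC -2.94, SE 0.055, edgeR adjusted p = 3.14e-23). Col9a1, which coats type II fibrils, fell from 8.77 ± 0.327 to 1.93 ± 0.213 CPM (log2FC -2.19, SE 0.12, edgeR adjusted p = 6.94e-14) and Col22a1, a collagen of tissue junctions, from 12.9 ± 1.5 to 2.36 ± 0.307 (log2FC -2.45, SE 0.12, edgeR adjusted p = 6.97e-15).

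The cartilage markers as a list did not go one way. Of 13 tested, 5 rose (3 without Cap-L 3 or Bell-L 1) and 4 fell, the summed level was 658 to 679 CPM in Cap-L and 614 to 634 in Bell-L, and Matn1 was at 0 in all cap libraries. Cnmd, chondromodulin, fell with Col2a1, from 3.47 ± 0.261 to 1.1 ± 0.26 CPM (log2FC -1.66, SE 0.18, edgeR adjusted p = 2.06e-08). By contrast Matn4, a matrilin of loose connective tissue as well as cartilage, rose from 19.4 ± 1.57 to 94.8 ± 4.68 CPM (log2FC 2.29, SE 0.06, edgeR adjusted p = 2.92e-20), and Hapln1, which links aggrecan to hyaluronan, rose with a log2FC of 0.95 (edgeR adjusted p = 5.87e-10). The part of these cells in the collagen values was not tested. Of 3 tendon markers, Tnmd, tenomodulin, rose from 8.66 ± 0.688 to 26.8 ± 2.34 CPM (log2FC 1.64, SE 0.081, edgeR adjusted p = 9.38e-15), whereas the tendon transcription factor Mkx fell from 41.4 ± 0.987 to 29.1 ± 1.4 CPM (log2FC -0.51, SE 0.057, edgeR adjusted p = 5.36e-08). Mkx was not called without Cap-L 2 (-0.50) or Bell-L 1 (-0.46), and without Cap-L 3 there were 2 tendon markers that fell.

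Matrix-cutting enzymes were divided as well. Of 32 metalloproteinases, ADAMTS proteases and TIMP inhibitors tested, 9 rose and 4 fell, against 14.0% and 5.91% of all genes. Mmp13, a collagenase of osteoblasts and late chondrocytes, measured 1.82, 1.75 and 1.48 CPM in Cap-L and 7.8, 9.4 and 9.03 in Bell-L (log2FC 2.37, SE 0.13, edgeR adjusted p = 5.12e-14). The aggrecanase Adamts5 rose from 10.8 ± 1.44 to 32.3 ± 0.796 CPM (log2FC 1.59, SE 0.078, edgeR adjusted p = 8.91e-15). Mmp9, a gelatinase of osteoclasts, measured 194, 202 and 198 CPM in Cap-L and 112, 108 and 113 in Bell-L, with every cap library higher (log2FC -0.83, SE 0.047, edgeR adjusted p = 1.3e-13). Adamts3, which trims procollagen, fell from 17.9 ± 2.3 to 9.39 ± 0.762 CPM (log2FC -0.92, SE 0.092, edgeR adjusted p = 1.08e-08). Mmp14 and Mmp2, a membrane-bound protease and the gelatinase it activates, were not called, with log2FC values of 0.43 and 0.46.

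**Figure D3:**
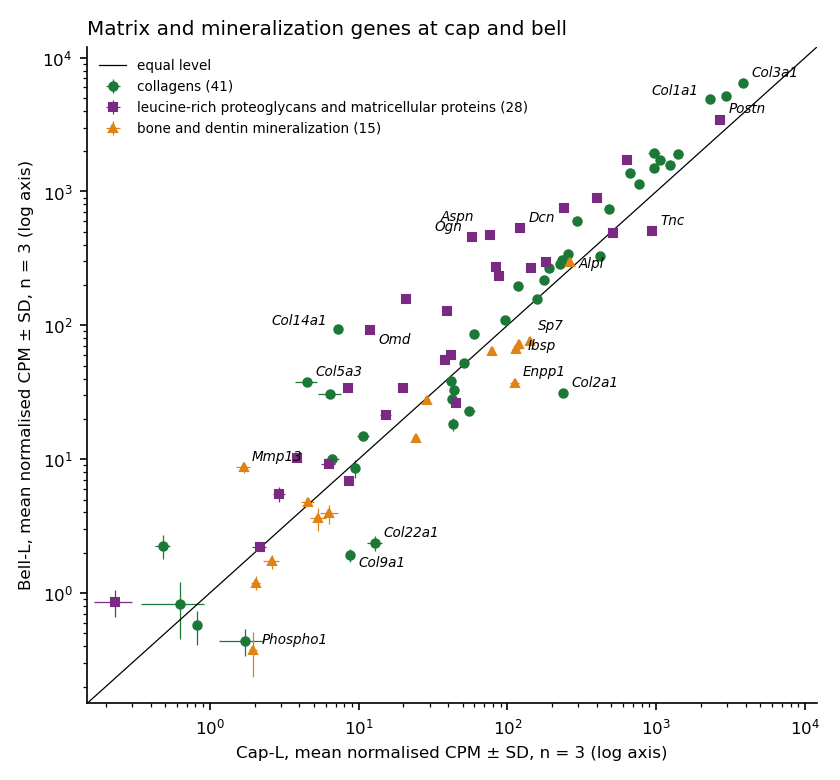
Mean normalised CPM ± SD (n = 3) in Cap-L (horizontal, log axis) and Bell-L (vertical, log axis) of the tested collagens, leucine-rich proteoglycans and matricellular proteins, and mineralization genes, with a line of equal level. Purple squares lie mostly above the line (21 of 28 called higher at bell), and orange triangles mostly below it (10 of 15 called higher at cap).

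Mineralization genes mostly fell. Osteoblasts and odontoblasts use Sp7 downstream of Runx2, and the enzymes Alpl, Enpp1 and Phospho1 set the balance of phosphate and pyrophosphate that lets crystals form. Of 15 such genes tested, 1 rose, Mmp13, and 10 fell, with a median log2FC of -0.67, against 5.91% of all genes called higher at the cap stage. The summed level was 899 to 921 CPM in Cap-L and 666 to 692 in Bell-L. Sp7 (ENSMUSG00000060284, chromosome 15, 102265041 to 102275617), the osteoblast transcription factor osterix, measured 138, 144 and 142 CPM in Cap-L and 80.3, 75.1 and 74.8 in Bell-L, and each cap library was above each bell library (log2FC -0.88, SE 0.048, edgeR adjusted p = 8.17e-14). Enpp1, which makes the mineral inhibitor pyrophosphate, measured 114, 103 and 118 CPM in Cap-L and 36.5, 39.2 and 36.2 in Bell-L (log2FC -1.58, SE 0.056, edgeR adjusted p = 1.43e-17). Runx2 (ENSMUSG00000039153, chromosome 17, 44806874 to 45125684), the regulator of bone and tooth formation, measured 448, 421 and 461 CPM in Cap-L and 282, 295 and 295 in Bell-L (log2FC -0.61, SE 0.05, edgeR adjusted p = 2e-10), and is counted here among the odontogenic factors. Dmp1, an acidic matrix protein of osteocytes and odontoblasts, was low at both stages, at 2.11, 2.14 and 1.87 CPM in Cap-L and 1.18, 1.35 and 1.06 in Bell-L (log2FC -0.77, SE 0.18, edgeR adjusted p = 0.00112). Phospho1, a phosphatase of matrix vesicles, fell from 1.95 ± 0.118 to 0.374 ± 0.139 CPM (log2FC -2.38, SE 0.26, edgeR adjusted p = 2.54e-08), but 89.6% of its exon bases lie under another gene, and pairs there were left out. Ifitm5, a membrane protein of osteoblasts with 29.7% of its exon bases overlapping another gene, fell from 5.36 ± 0.633 to 3.61 ± 0.711 CPM (log2FC -0.59, SE 0.14, edgeR adjusted p = 0.000889), and was not called without Cap-L 2 (-0.48) or without Bell-L 3 (-0.41). Spp1, osteopontin, fell from 2.6 ± 0.311 to 1.73 ± 0.203 CPM (log2FC -0.59, SE 0.16, edgeR adjusted p = 0.00409), a call that was lost without Bell-L 2 (-0.50). Alpl, alkaline phosphatase, was not called, at 259, 274 and 260.3 CPM in Cap-L and 305, 303 and 286 in Bell-L (log2FC 0.17, SE 0.048, edgeR adjusted p = 0.00404), and Ostn, osteocrin, overlapped between the stages at 4.4, 5.09 and 4.2 CPM in Cap-L and 4.41, 4.92 and 4.98 in Bell-L (log2FC 0.061, SE 0.12, edgeR adjusted p = 0.693). Bglap, Bglap2, Dspp, Mepe and Sost had too few counts to be tested.

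Transcription factors of the tooth moved in both directions. Of 20 odontogenic factors tested, 4 rose and 6 fell, against 14.0% and 5.91% of all genes. Dlx4 (ENSMUSG00000020871, chromosome 11, 95031273 to 95037089), a distal-less homeobox gene, measured 0.25, 0.473 and 0.706 CPM in Cap-L and 12.1, 10.7 and 10.3 in Bell-L, with no overlap (log2FC 4.52, SE 0.17, edgeR adjusted p = 8.61e-17). Its neighbour Dlx3, whose human counterpart is mutated in tricho-dento-osseous syndrome, measured 13.5, 14.9 and 11.6 CPM in Cap-L and 46.4, 44.7 and 45.6 in Bell-L (log2FC 1.77, SE 0.071, edgeR adjusted p = 1.3e-16). Msx2, a homeobox gene of the enamel knot and the papilla, measured 2.79, 2.06 and 2.54 CPM in Cap-L and 15.9, 14.8 and 14.5 in Bell-L (log2FC 2.63, SE 0.11, edgeR adjusted p = 1.9e-16). Among those that fell, Dlx6 went from 30.5 ± 0.855 to 15.2 ± 0.541 CPM (log2FC -1.0, SE 0.064, edgeR adjusted p = 1.68e-12) and Pitx1, a regulator of the lower jaw and its molars, from 294 ± 30.5 to 171 ± 9.98 (log2FC -0.78, SE 0.062, edgeR adjusted p = 4.04e-10). Prrx1, given above, fell with a log2FC of -0.56 (edgeR adjusted p = 2.01e-09), and Msx1 had -0.31 (edgeR adjusted p = 7.98e-05), inside the limit on the fold. Runx1 and Osr2, the latter a zinc finger factor that restricts the tooth field on the lingual side, were not called, with log2FC values of 0.051 and 0.17.

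Of 21 regional factors of the face tested, 1 rose and 12 fell, against 14.0% and 5.91% of all genes, with a median log2FC of -0.67. Alx4 (ENSMUSG00000040310, chromosome 2, 93472729 to 93511684), an aristaless homeobox gene of facial mesenchyme, measured 100.3, 93.6 and 103 CPM in Cap-L and 27.2, 27.3 and 26.6 in Bell-L, with all cap libraries higher (log2FC -1.86, SE 0.054, edgeR adjusted p = 1.65e-19). Its relative Alx1 fell with a log2FC of -0.60 (edgeR adjusted p = 1.05e-05), and was not called when all 24 libraries shared 1 fit. Tbx22, the T-box gene of X-linked cleft palate, measured 23.1, 20.1 and 21.5 CPM in Cap-L and 6.62, 7.47 and 7.04 in Bell-L (log2FC -1.6, SE 0.082, edgeR adjusted p = 1.97e-14). Tbx15 fell from 51.6 ± 0.939 to 19.6 ± 1.18 CPM (log2FC -1.39, SE 0.059, edgeR adjusted p = 5.23e-16) and Tbx3 from 66 ± 0.303 to 39.5 ± 1.01 (log2FC -0.74, SE 0.05, edgeR adjusted p = 4.86e-12), while Tbx18 was not called, at 5.48 ± 0.437 and 4.59 ± 0.345 (log2FC -0.25, SE 0.11, edgeR adjusted p = 0.0666). Hand2, a basic helix-loop-helix gene of the distal jaw, measured 7.01, 7.07 and 7.87 CPM in Cap-L and 1.86, 3.1 and 2.69 in Bell-L (log2FC -1.51, SE 0.13, edgeR adjusted p = 9.52e-10), with 19.6% of its exon bases overlapping another gene. The member that rose was Foxf2, a forkhead gene of palate and oral mesenchyme, at 29.9, 29.9 and 27.7 CPM in Cap-L and 48.2, 48.5 and 49.3 in Bell-L (log2FC 0.74, SE 0.055, edgeR adjusted p = 2.55e-11), and its paralog Foxf1 overlapped between the stages at 201, 207 and 194 CPM in Cap-L and 193, 197 and 206 in Bell-L (log2FC -0.011, SE 0.048, edgeR adjusted p = 0.862). Hand1 was at or under the floor in all 6 libraries.

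**Figure D4:**
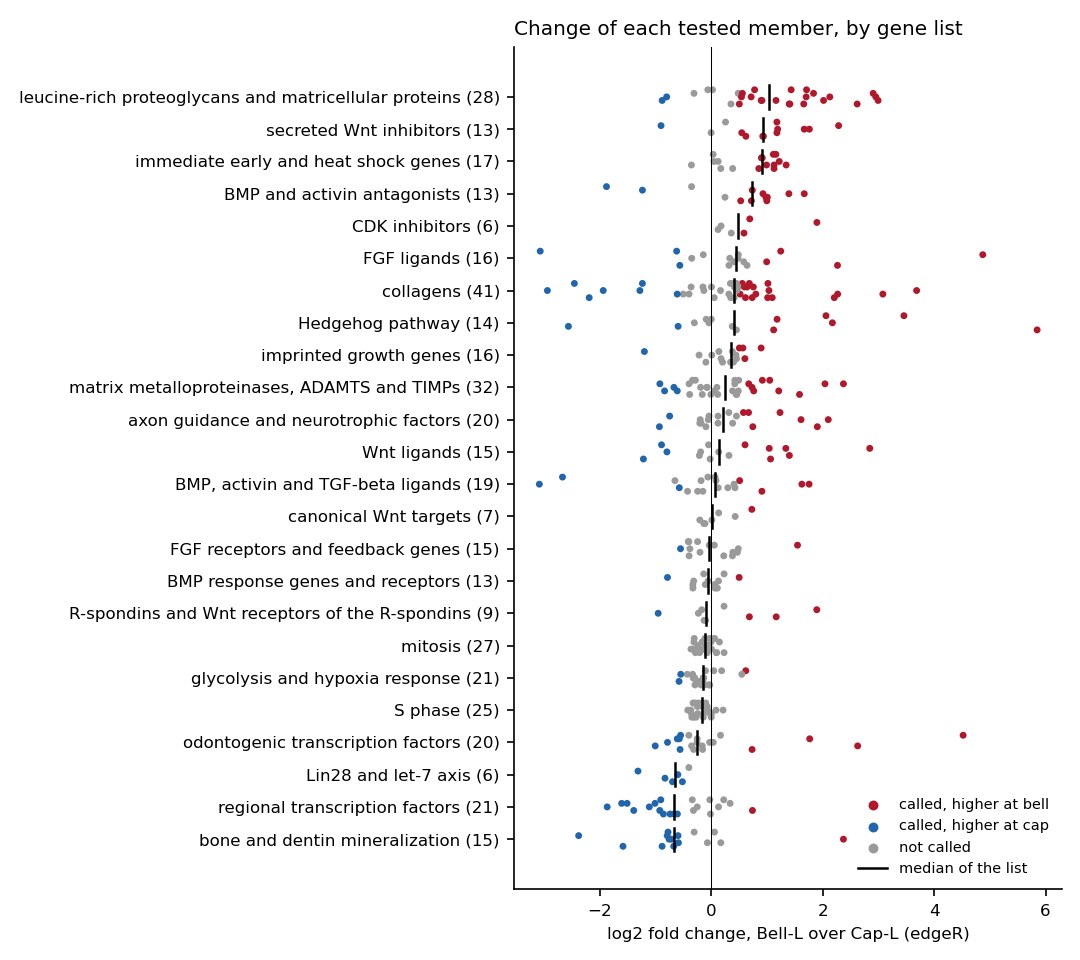
Log2 fold change (Bell-L over Cap-L, edgeR) of every tested member of 24 gene lists, with the number tested in parentheses, called members in red (higher at bell) or blue (higher at cap), others in grey, and the median of each list as a black line. Medians run from -0.67 for mineralization to 1.04 for the leucine-rich proteoglycans and matricellular proteins.

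Wnt signals are released by both tissues of the tooth germ and are held in check by secreted inhibitors, while R-spondins raise the response by protecting Wnt receptors. Of 13 secreted inhibitors tested, 10 rose and 1 fell, with a median log2FC of 0.94. Dkk2 (ENSMUSG00000028031, chromosome 3, 131791053 to 131886065), a blocker of the Wnt co-receptor, measured 164, 155 and 158 CPM in Cap-L and 356, 367 and 356 in Bell-L, without overlap (log2FC 1.18, SE 0.048, edgeR adjusted p = 1.92e-16). Sostdc1, which blocks both Wnts and BMPs and limits tooth number, measured 73.6, 76.9 and 68 CPM in Cap-L and 227, 234 and 234 in Bell-L (log2FC 1.67, SE 0.051, edgeR adjusted p = 6.7e-19). Sfrp2, a secreted frizzled-related protein, measured 299, 331 and 309.8 CPM in Cap-L and 486, 461 and 499 in Bell-L (log2FC 0.62, SE 0.051, edgeR adjusted p = 1.91e-10). Lower expressed inhibitors rose as well, Dkk4 from 0.245 ± 0.0775 to 1.18 ± 0.169 CPM (log2FC 2.29, SE 0.31, edgeR adjusted p = 1.19e-06) and Sfrp5 from 0.573 ± 0.17 to 1.97 ± 0.40 (log2FC 1.76, SE 0.24, edgeR adjusted p = 1.21e-06). Notum, an enzyme that strips the lipid from Wnts, rose from 6.23 ± 0.416 to 12 ± 0.44 CPM (log2FC 0.94, SE 0.087, edgeR adjusted p = 1.92e-09), with 38.1% of its exon bases overlapping another gene. The inhibitor that fell was Frzb, a frizzled-related protein of cartilage and joints, at 337, 343 and 341 CPM in Cap-L and 183, 182 and 181 in Bell-L (log2FC -0.90, SE 0.046, edgeR adjusted p = 2.26e-14).

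Of the 15 Wnt ligands tested, 6 rose and 3 fell. Wnt5a, a non-canonical ligand of the mesenchyme, measured 121, 117 and 124 CPM in Cap-L and 246, 252 and 257 in Bell-L, and its groups were well apart (log2FC 1.07, SE 0.048, edgeR adjusted p = 1.33e-15). Wnt11, another non-canonical ligand, rose from 15.2 ± 1.95 to 38.6 ± 1.64 CPM (log2FC 1.34, SE 0.074, edgeR adjusted p = 1.76e-13). The epithelial ligand Wnt10a, mutated in people with missing teeth, rose from 2.98 ± 0.199 to 7.89 ± 0.434 CPM (log2FC 1.4, SE 0.11, edgeR adjusted p = 7.75e-11). Wnt2 fell from 17.8 ± 1.15 to 7.66 ± 0.738 CPM (log2FC -1.21, SE 0.084, edgeR adjusted p = 8.21e-12) and Wnt7b, a ligand of the oral epithelium, from 9.36 ± 1.13 to 5.06 ± 0.659 (log2FC -0.89, SE 0.11, edgeR adjusted p = 2.8e-07), the latter call being lost when all 24 libraries shared 1 fit. Of 9 R-spondins and receptors, 3 rose and 1 fell, against 14.0% and 5.91% of all genes. Rspo1 (ENSMUSG00000028871, chromosome 4, 124880223 to 124902892) overlapped between the stages, at 43, 47.7 and 44.7 CPM in Cap-L and 43.6, 40.4 and 42.5 in Bell-L (log2FC -0.10, SE 0.055, edgeR adjusted p = 0.155). Rspo2 measured 12.2, 13.7 and 12.6 CPM in Cap-L and 29.4, 27.7 and 29.3 in Bell-L and rose (log2FC 1.17, SE 0.068, edgeR adjusted p = 2.56e-13), as did Rspo4 from 1.62 ± 0.119 to 6.06 ± 0.532 (log2FC 1.9, SE 0.14, edgeR adjusted p = 1.48e-11), whereas Rspo3 measured 41.4, 40.7 and 39.7 CPM in Cap-L and 20.5, 20.6 and 21.8 in Bell-L and fell (log2FC -0.95, SE 0.059, edgeR adjusted p = 8.07e-13). The 4 R-spondins thus did not move together. Their receptors Lgr4 and Lgr5 were not called, with log2FC values of 0.23 and -0.13, and Lgr6 rose by 0.69 (edgeR adjusted p = 2.47e-09). Of 7 feedback targets of canonical Wnt signaling, 1 rose, against 14.0% of all genes, so the list stood near that share. The gene was Nkd2, from 46.5 ± 1.29 to 77.1 ± 0.582 CPM (log2FC 0.73, SE 0.049, edgeR adjusted p = 3.32e-12). Axin2, the usual reporter gene of the pathway, was not called, at 127, 117 and 131 CPM in Cap-L and 114, 116 and 112 in Bell-L (log2FC -0.13, SE 0.05, edgeR adjusted p = 0.0349).

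BMPs pass between epithelium and mesenchyme and drive the latter's tooth program, and secreted antagonists bind them outside the cell. Of 13 BMP and activin antagonists tested, 9 rose and 2 fell. Fstl1, a follistatin-like secreted protein, measured 707, 679.6 and 699.6 CPM in Cap-L and 1305, 1337 and 1326 in Bell-L, with no overlap (log2FC 0.93, SE 0.049, edgeR adjusted p = 2.97e-14). Chrdl1, a chordin-like protein, rose from 10.3 ± 0.353 to 27 ± 1.58 CPM (log2FC 1.4, SE 0.072, edgeR adjusted p = 2.32e-14) and Chrd, chordin, from 17.9 ± 0.669 to 36 ± 2.24 (log2FC 1.01, SE 0.064, edgeR adjusted p = 1.55e-12). Bmper, a secreted BMP regulator, measured 21.6, 23.5 and 23.7 CPM in the cap libraries and 6.5, 6.12 and 6.08 in the bell libraries, each cap value being higher (log2FC -1.88, SE 0.079, edgeR adjusted p = 3.95e-16). Chrdl2 also fell, from 4.2 ± 0.29 to 1.77 ± 0.203 CPM (log2FC -1.23, SE 0.14, edgeR adjusted p = 1.12e-07), and Grem1, gremlin, was not called (log2FC -0.35, SE 0.073, edgeR adjusted p = 0.000276). Of 19 ligands tested, 4 rose and 3 fell, against 14.0% and 5.91% of all genes. Tgfb2 measured 28.5, 29.6 and 30.2 CPM in Cap-L and 96.9, 101 and 99.7 in Bell-L (log2FC 1.76, SE 0.051, edgeR adjusted p = 1.81e-19), and Bmp3, an unusual BMP that opposes the others, rose from 25.1 ± 0.909 to 77.2 ± 3.75 (log2FC 1.63, SE 0.055, edgeR adjusted p = 5.45e-18). Bmp2, an inducer of bone and a signal of the enamel knot, measured 31.9, 32.2 and 33.7 CPM in Cap-L and 22.2, 20.6 and 22.9 in Bell-L and fell (log2FC -0.57, SE 0.062, edgeR adjusted p = 2.73e-08). Gdf5, a joint-forming ligand with 40.3% of its exon bases overlapping another gene, fell from 1.76 ± 0.119 to 0.269 ± 0.124 CPM (log2FC -2.67, SE 0.28, edgeR adjusted p = 1.91e-08). The activin subunit Inhba, which the mesenchyme sends to the epithelium, overlapped between the stages (log2FC -0.058, SE 0.054, edgeR adjusted p = 0.402). Of 13 receptors and response genes tested, 1 rose and 1 fell, against the same shares of all genes. Id4 rose (log2FC 0.50, SE 0.07, edgeR adjusted p = 1.55e-06), at the limit on the fold, Bmpr1b fell (log2FC -0.78, SE 0.19, edgeR adjusted p = 0.00138), and the receptor Acvr2b was not called (log2FC -0.31, SE 0.10, edgeR adjusted p = 0.0104). Without Cap-L 3, Bell-L 2 or Bell-L 3, Id4 was not called (0.45, 0.47 and 0.48) and the list had 0 rising genes in edgeR.

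FGFs of the enamel knot and of the papilla sustain growth of the germ. Of 16 ligands tested, 4 rose (8 without Bell-L 3) and 3 fell, against 14.0% and 5.91% of all genes. Fgf4, a ligand made in enamel knots, measured 0.0358, 0.0278 and 0.0353 CPM in the cap libraries, under the floor of each, and 0.913, 0.984 and 1.3 in the bell libraries (edgeR adjusted p = 4.44e-09). Fgf9, another epithelial ligand, rose from 0.679 ± 0.0405 to 3.3 ± 0.177 CPM (log2FC 2.27, SE 0.18, edgeR adjusted p = 1.36e-10), and Fgf20, which also marks the enamel knot, measured 3.72, 4.03 and 3.39 CPM in Cap-L and 0.19, 0.583 and 0.531 in Bell-L and fell (log2FC -3.06, SE 0.23, edgeR adjusted p = 2.77e-11). Ligands known from the enamel knot thus went in both directions. Of ligands made in mesenchyme, Fgf7 rose from 6.86 ± 0.256 to 16.2 ± 1.59 CPM (log2FC 1.25, SE 0.087, edgeR adjusted p = 8.79e-12), while Fgf10 and Fgf3, which signal from the papilla, had log2FC values of 0.42 and 0.48 and were not called, Fgf3 being called without Cap-L 1 (0.58) or Bell-L 3 (0.53). Among 15 receptors and feedback genes, 1 rose, Fgfr4, from 3.23 ± 0.319 to 9.5 ± 0.611 CPM (log2FC 1.55, SE 0.11, edgeR adjusted p = 7.16e-12), and 1 fell, the inhibitor Spry4, from 68.4 ± 3.06 to 46.6 ± 1.13 (log2FC -0.55, SE 0.051, edgeR adjusted p = 2.18e-09). The list had 2 rising genes without Cap-L 1, Cap-L 3, Bell-L 1 or Bell-L 3. Its counts stand against the same shares of all genes. Fgfr1 and Fgfr2 were not called, with log2FC values of 0.23 and -0.20. Hgf, a ligand from mesenchyme that acts on epithelium and endothelium, measured 4.9, 3.56 and 6.0 CPM in Cap-L and 14.7, 16.3 and 14 in Bell-L, with no overlap (log2FC 1.66, SE 0.13, edgeR adjusted p = 2.1e-09).

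Nerves reach the tooth germ late, and its mesenchyme repels and attracts their axons with secreted cues. Of 20 guidance and neurotrophic genes tested, 7 rose and 2 fell. Sema3a, a repellent of sensory axons around the tooth, measured 140.0, 130.0 and 139 CPM in Cap-L and 227, 229 and 229 in Bell-L, without overlap (log2FC 0.75, SE 0.048, edgeR adjusted p = 1.6e-12). Ntn1, netrin, rose from 9.17 ± 0.836 to 34.2 ± 0.944 CPM (log2FC 1.91, SE 0.073, edgeR adjusted p = 5.32e-17) and Sema3c from 5.31 ± 0.309 to 16.2 ± 0.255 (log2FC 1.61, SE 0.084, edgeR adjusted p = 2.68e-14). Among the genes that fell was the neurotrophin Ntf3, which sustains sensory axons, from 10.9 ± 1.58 to 5.76 ± 0.473 CPM (log2FC -0.93, SE 0.11, edgeR adjusted p = 8.32e-08). Of 7 neuronal markers tested, 4 fell and the others were not called, and their summed level was 63.8 to 65 CPM in Cap-L and 28.4 to 30.7 in Bell-L. Nefm, the medium chain of neurofilaments, measured 25.4, 23.8 and 25.2 CPM in Cap-L and 4.75, 4.05 and 5.05 in Bell-L, every cap library being higher (log2FC -2.42, SE 0.086, edgeR adjusted p = 1.36e-17). Of 9 glial markers tested, 4 rose, with a summed level of 35.2 to 37.8 CPM in Cap-L and 68.6 to 72.8 in Bell-L. S100b, a calcium-binding protein of Schwann cells and other cell types, led them, from 3.0 ± 0.163 to 23.2 ± 0.245 CPM (log2FC 2.95, SE 0.087, edgeR adjusted p = 2.59e-19). How far the nerve content set the guidance values was not tested.

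Of the growth-related genes, those listed for the cell cycle were not called at the limits used here. Among 25 genes of S phase and 27 of mitosis tested, 0 were called in either direction by edgeR and 0 by DESeq2. An unadjusted edgeR p under 0.05 was found for 16 and 16 of them, and for 11491 of all 20908 genes tested. The median log2FC values of the lists were -0.16 and -0.10. The summed level of the S phase list was 1910 to 1967 CPM in Cap-L and 1656 to 1675 in Bell-L. That of the mitosis list was 1974 to 2029 CPM in Cap-L and 1911 to 1957 in Bell-L, and neither sum overlapped between the stages. All cap libraries were above all bell libraries in 17 of the S phase and 14 of the mitosis genes, as they were in 5746 of all 20908 genes tested. Among them was Mcm6, a helicase subunit of replication forks, at 227, 231 and 222 CPM in Cap-L and 183, 184 and 186 in Bell-L (log2FC -0.30, SE 0.046, edgeR adjusted p = 7.12e-06). Mki67, a general marker of cycling cells, measured 312, 272 and 310.1 CPM in Cap-L and 349, 349 and 351 in Bell-L (log2FC 0.23, SE 0.053, edgeR adjusted p = 0.000717). Of 6 inhibitors of cyclin-dependent kinases, 3 rose. Cdkn1a, p21, which halts the cycle, went from 14.9 ± 1.62 to 22.5 ± 0.979 CPM (log2FC 0.59, SE 0.076, edgeR adjusted p = 4.67e-07) and Cdkn2c from 19.5 ± 0.929 to 31.4 ± 1.96 (log2FC 0.69, SE 0.065, edgeR adjusted p = 2.47e-09). Lin28 proteins and their partners mark early embryonic tissue and are silenced by let-7 microRNAs. All 5 called genes of that list, of 6 tested, fell. Igf2bp1, an RNA-binding protein of embryonic cells, measured 109.7, 97.8 and 115 CPM in Cap-L and 43.2, 42 and 44.2 in Bell-L, with all cap libraries higher (log2FC -1.31, SE 0.057, edgeR adjusted p = 9.5e-16). The architectural factors Hmga1 and Hmga2 fell with log2FC values of -0.83 and -0.60 (edgeR adjusted p = 2.27e-12 and 2.13e-10). Lin28b was low and its groups overlapped, at 2.79, 2.25 and 1.98 CPM in Cap-L and 1.1, 1.17 and 1.99 in Bell-L (log2FC -0.69, SE 0.21, edgeR adjusted p = 0.00737), and the call was lost without Bell-L 1 (-0.54), when 3 genes of the list fell. Of 16 imprinted growth genes, 4 rose and 1 fell, against 14.0% and 5.91% of all genes. Mest, a paternally expressed gene of mesoderm, rose from 909 ± 17.4 to 1689.8 ± 20.1 CPM (log2FC 0.90, SE 0.049, edgeR adjusted p = 6.25e-14), whereas Peg10, a retrotransposon-derived gene, measured 351, 313 and 361 CPM in Cap-L and 147, 151 and 148 in Bell-L and fell (log2FC -1.2, SE 0.054, edgeR adjusted p = 1.47e-15).

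Metabolic genes were mostly not called, with 1 of 21 glycolysis and hypoxia genes higher at the bell stage, Pfkp (log2FC 0.62, SE 0.071, edgeR adjusted p = 7.1e-08), and 2 higher at the cap stage, Slc16a3 (log2FC -0.54, SE 0.064, edgeR adjusted p = 1.17e-07) and Ankrd37 (log2FC -0.57, SE 0.18, edgeR adjusted p = 0.00924). Slc16a3 was not called without Cap-L 2 (-0.50), nor Ankrd37 without Bell-L 1 (-0.41), which leaves 1 falling gene in each case. Immediate early genes respond within minutes to stimuli and also to tissue handling, and were listed together with heat shock genes. Of 17 tested, 11 rose and the others were not called, with a median log2FC of 0.91. Fos measured 731, 762 and 733 CPM in Cap-L and 1355, 1339.9 and 1327 in Bell-L, with no overlap (log2FC 0.86, SE 0.048, edgeR adjusted p = 1.41e-13). Dusp1, a phosphatase that ends MAP kinase signals, measured 89.7, 94 and 88.1 CPM in Cap-L and 232, 228 and 229 in Bell-L (log2FC 1.35, SE 0.048, edgeR adjusted p = 1.16e-17), and the RNA-binding protein Zfp36 209.7, 229 and 216 CPM in Cap-L and 518, 501 and 506 in Bell-L (log2FC 1.22, SE 0.05, edgeR adjusted p = 1.85e-16). Egr1 was not called, and its groups overlapped at 1581, 1569 and 1644 CPM in Cap-L and 1667, 1625 and 1615 in Bell-L (log2FC 0.037, SE 0.049, edgeR adjusted p = 0.564). Time from dissection to lysis is not given in the sources used here, and its part in these values was not tested.

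Markers of several other cell types rose at the bell stage. All 13 of 13 skeletal muscle genes tested rose, with a median log2FC of 2.89, and the summed level was 28.3 to 28.8 CPM in Cap-L and 155 to 165 in Bell-L. Actc1, an actin of embryonic muscle, measured 5.58, 4.9 and 4.24 CPM in Cap-L and 48.7, 47.2 and 46.5 in Bell-L, and no library of one stage came near the other (log2FC 3.28, SE 0.079, edgeR adjusted p = 4.72e-21). Myod1, the factor that commits cells to muscle, measured 0.429, 0.473 and 0.53 CPM in Cap-L and 5.71, 4.85 and 5.38 in Bell-L (log2FC 3.47, SE 0.18, edgeR adjusted p = 2.47e-14). Ckm, muscle creatine kinase, was at 0 in the 3 cap libraries, as was Myf6, and Ckm measured 0.723, 0.948 and 0.631 CPM in the bell libraries, each above its floor (edgeR adjusted p = 5.87e-08). All 12 of 12 macrophage genes tested rose too, with a median log2FC of 1.98 and a summed level of 108 to 112 CPM in Cap-L and 414 to 418 in Bell-L. Mrc1, the mannose receptor of tissue macrophages, measured 23, 21.5 and 22.6 CPM in Cap-L and 111, 117 and 113 in Bell-L (log2FC 2.36, SE 0.053, edgeR adjusted p = 1.27e-21), and Csf1r, the receptor on which macrophages depend, rose from 23.1 ± 0.888 to 75.9 ± 2.27 (log2FC 1.72, SE 0.054, edgeR adjusted p = 1.01e-18). Lyve1, a receptor for hyaluronan on lymphatic vessels and some macrophages, measured 3.04, 3.2 and 2.75 CPM in Cap-L and 37.4, 40.1 and 43.1 in Bell-L (log2FC 3.74, SE 0.088, edgeR adjusted p = 2.58e-21), and the chemokine Ccl21a, known from lymphatic vessels and lymph nodes, 0.679, 0.417 and 0.53 CPM in Cap-L and 51.2, 47.4 and 51.1 in Bell-L (log2FC 6.55, SE 0.11, edgeR adjusted p = 6.41e-24). Ccl21a has near-identical copies, so its level is uncertain. Of 10 blood vessel markers, 2 rose (1 without Cap-L 2), against 14.0% of all genes, with a summed level of 574 to 584 CPM in Cap-L and 695 to 725 in Bell-L, and the vessel receptor Tie1 was not called (log2FC 0.24, SE 0.051, edgeR adjusted p = 0.000462). Of 10 smooth muscle and pericyte markers, 5 rose and 1 fell, and their summed level overlapped between the stages, at 646 to 702 CPM in Cap-L and 636 to 669 in Bell-L. Kcnj8, a potassium channel subunit of pericytes, measured 1.43, 1.56 and 1.62 CPM in Cap-L and 30.8, 30.1 and 27.7 in Bell-L (log2FC 4.26, SE 0.10, edgeR adjusted p = 2.13e-21). Pdgfrb, a growth factor receptor of pericytes and of much mesenchyme, fell from 335 ± 10.7 to 229.7 ± 6.55 CPM (log2FC -0.54, SE 0.048, edgeR adjusted p = 8.43e-10). Both melanocyte markers tested rose, Mitf (log2FC 1.1, SE 0.10, edgeR adjusted p = 1.28e-09) and Pmel (log2FC 0.72, SE 0.25, edgeR adjusted p = 0.0198). Pmel was not called without Cap-L 1, Cap-L 3, Bell-L 1 or Bell-L 3 (0.63 to 0.67), which leaves 1 rising marker, and the list had a summed level of 5.26 to 6.35 CPM in Cap-L and 11.6 to 12.2 in Bell-L. How much of any other change came with these cells was not tested.

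The largest rises among called genes with an average log2 CPM of at least 2 were those of keratins. Krt4 and Krt13 form the keratin pair of lining epithelia such as that of the tongue and mouth. Krt4 (ENSMUSG00000059668, chromosome 15, 101826970 to 101833170) measured 0.286, 0.195 and 0.282 CPM in Cap-L and 33.9, 28.1 and 32.5 in Bell-L (log2FC 6.96, SE 0.15, edgeR adjusted p = 3.93e-22). Krt13 (ENSMUSG00000044041, chromosome 11, 100008153 to 100012392) measured 0.608, 0.723 and 0.318 CPM in Cap-L and 72, 65.7 and 66.9 in Bell-L (log2FC 6.91, SE 0.11, edgeR adjusted p = 4.84e-24). Both were below 1 CPM in each cap library and well above it in each bell library. Krt5, the keratin of basal epithelial cells, was present at both stages, at 150.5, 167 and 159 CPM in Cap-L and 388, 368 and 368 in Bell-L (log2FC 1.24, SE 0.051, edgeR adjusted p = 2.06e-16). Krt5 is also a member of the epithelial list, whose sum is given above with the Hedgehog genes. Vwde, a secreted protein with a von Willebrand factor domain, measured 0.25, 0.0835 and 0.0353 CPM in Cap-L and 14.9, 13.3 and 13.8 in Bell-L (log2FC 6.83, SE 0.21, edgeR adjusted p = 4.47e-19). Agt, angiotensinogen, the precursor of the angiotensin peptides, measured 0.0715, 0.111 and 0.247 CPM in Cap-L and 9.58, 9.04 and 10.8 in Bell-L (log2FC 6.08, SE 0.21, edgeR adjusted p = 1.02e-17). Mybpc1, myosin-binding protein C of slow muscle, measured 1.36, 0.64 and 0.988 CPM in Cap-L and 34, 34.3 and 35.6 in Bell-L (log2FC 5.16, SE 0.12, edgeR adjusted p = 6.27e-21). The zinc finger factor Sall3 and the membrane protein Plppr5 complete the 10 largest rises, with log2FC values of 5.01 and 4.58 (edgeR adjusted p = 6.66e-17 and 1.11e-19). Among the 10 largest falls not yet given, Slc13a5, a citrate transporter, measured 13.5, 12.6 and 12.5 CPM in Cap-L and 1.6, 1.13 and 1.86 in Bell-L (log2FC -3.05, SE 0.13, edgeR adjusted p = 2.75e-16). Rxfp2, the receptor of insulin-like peptide 3, measured 26.2, 21.5 and 24.7 CPM in Cap-L and 3.04, 3.75 and 4.32 in Bell-L (log2FC -2.69, SE 0.10, edgeR adjusted p = 2.17e-16), and B3gat1, which makes the HNK-1 sugar epitope of neural cells, fell from 10.2 ± 0.301 to 1.98 ± 0.222 (log2FC -2.35, SE 0.11, edgeR adjusted p = 8.54e-15).

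Many of the genes above are taken up by the study, such as Sp7, Dkk2 and Rspo2. Rspo2 was picked on libraries that include these, and Sp7 on mesenchyme that was not split. Dkk2 is named from in situ hybridization and also among Wnt-associated genes that the study reports as raised in the cultured lingual part. Genes picked on these libraries are not independent evidence of a direction. Of the ossification genes that the study reports as higher at the bell stage in mesenchyme that was not split, Mmp13 and Notum rose here. Sp7, Dmp1 and Ifitm5 fell, and the call of Ifitm5 was lost when some single libraries were left out, as given above. Of the study's other bell stage genes given here, Col1a1, Col1a2, Col4a1, Col4a2 and Hgf rose, Col2a1 fell and Tie1 was not called. Of its cap stage genes given here, Alx1, Alx4, Tbx3 and Tbx15 were higher at the cap stage, and Tbx18 and Acvr2b were not called. B2m, the light chain of MHC class I used as the study's RT-qPCR reference gene, measured 67.2, 70.3 and 65.8 CPM in Cap-L and 133, 136 and 135 in Bell-L, with no overlap (log2FC 1.0, SE 0.048, edgeR adjusted p = 5.31e-15).

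Whether the lingual part changed otherwise than the buccal part was tested as the interaction of stage and side over 12 libraries, whose lingual and buccal groups share no library. Of 21931 genes tested, 3973 rose more or fell less in the lingual part and 3188 rose less or fell more, together 32.7% at an adjusted p under 0.05 with no limit on the fold. Of the 4172 genes called in the lingual part, 2140 passed this test. The test holds the same Cap-L and Bell-L libraries that gave those calls, so this count is not independent of them. Mybpc1 held 11.8 ± 1.23 CPM in Cap-B and 17.6 ± 0.709 in Bell-B, against the rise from near 1 CPM in the lingual part (interaction 4.61 log2, SE 0.15, edgeR adjusted p = 4.95e-23). Avpr1a, a vasopressin receptor, measured 0.322, 0.779 and 0.494 CPM in Cap-L and 4.83, 5.1 and 5.45 in Bell-L CPM in the lingual libraries of the 2 stages, while the buccal part measured 10.6 ± 0.96 and then 3.24 ± 0.599 (interaction 4.94 log2, SE 0.23, edgeR adjusted p = 5.22e-19). The mean of Avpr1a was thus higher at the bell stage in the lingual part and higher at the cap stage in the buccal part. Mrgprf, an orphan receptor, rose in the lingual part from 1.37 ± 0.0835 to 25.5 ± 0.23 CPM and measured 12.6 ± 0.26 and 15.4 ± 0.812 in the buccal part (interaction 3.95 log2, SE 0.12, edgeR adjusted p = 6.12e-24). Scg2, a secretory granule protein, rose from 2.29 ± 0.042 to 29.1 ± 0.682 CPM in the lingual part and measured 9.56 ± 0.107 and 8.64 ± 0.305 in the buccal part (interaction 3.83 log2, SE 0.12, edgeR adjusted p = 3.92e-24). Shisa9, a regulator of glutamate receptors, had an interaction of 3.75 log2 (edgeR adjusted p = 1.74e-16).

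In the other direction, Prdm16, a chromatin factor of palate and jaw, measured 24.2, 21.5 and 26.2 CPM in Cap-L and 15.4, 15.7 and 16.5 in Bell-L, while the buccal part measured 2.05 ± 0.147 and then 14.2 ± 0.996 (interaction -3.36 log2, SE 0.14, edgeR adjusted p = 1.12e-20). Mmp13, which rose in the lingual part, measured 0.243 ± 0.141 and then 12.2 ± 0.848 CPM in the buccal part (interaction -3.26 log2, SE 0.31, edgeR adjusted p = 1.03e-10). Col9a1 fell in the lingual part, and its buccal level was 1.95 ± 0.187 and then 3.16 ± 0.316 CPM (interaction -2.86 log2, SE 0.19, edgeR adjusted p = 1.28e-14). Tnxb, a tenascin of connective tissue, had an interaction of -2.76 log2 and Insyn2b, a gene of inhibitory synapses, of -2.7 (edgeR adjusted p = 1.65e-13 and 4.65e-14). Several of the genes above differed between the parts. Sp7 fell in the lingual part, and its buccal values were 62 ± 1.25 and 67.9 ± 0.936 CPM (interaction -0.98 log2, SE 0.058, edgeR adjusted p = 4.14e-16), and those of Runx2 241 ± 3.18 and 262 ± 4.58 (interaction -0.70 log2, SE 0.056, edgeR adjusted p = 1.91e-12). Of the mineralization list, 12 of 15 genes rose less or fell more in the lingual part, and the others did not pass the test. Dkk2 rose in the lingual part and measured 214 ± 4.82 and 117 ± 2.07 CPM in the buccal part (interaction 2.07 log2, SE 0.055, edgeR adjusted p = 1.38e-25), and Tgfb2 125 ± 4.08 and 83.8 ± 4.89 (interaction 2.36 log2, SE 0.064, edgeR adjusted p = 1.4e-25). Fgf3, not called in the lingual part, measured 1.59 ± 0.148 and 13.7 ± 1.39 CPM in the buccal part (interaction -2.6 log2, SE 0.17, edgeR adjusted p = 9.86e-15). For Shh the interaction did not pass the threshold, at -0.83 log2 (SE 0.55, edgeR adjusted p = 0.274), whereas Hhip rose more in the lingual part (interaction 1.67 log2, SE 0.10, edgeR adjusted p = 2.89e-16) and Ptch1 less (interaction -0.85 log2, SE 0.064, edgeR adjusted p = 4.75e-13). Hbb-y measured 460.1 ± 10.5 and then 10.5 ± 0.913 CPM in the buccal part, and its interaction was 0.45 log2 (edgeR adjusted p = 0.000138). Of the macrophage genes, 11 of 12 rose more in the lingual part, and the other did not pass the test. Of 25 S phase genes, 23 rose less or fell more in the lingual part and 0 rose more. Of 27 mitosis genes, 15 rose less or fell more and 1 rose more. Of all 21931 genes tested, 3188 rose less or fell more and 3973 rose more or fell less.

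**Figure D5:**
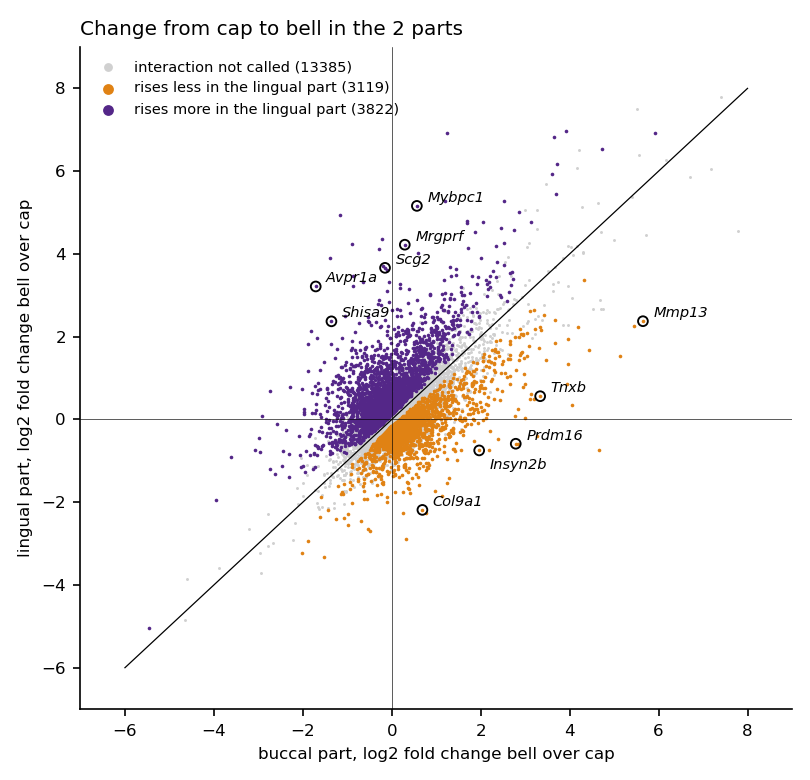
Log2 fold change from cap to bell in the buccal part (horizontal) and the lingual part (vertical) of the genes tested in both, with a line of equal change. Purple genes rose more and orange genes rose less in the lingual part by the interaction test, and the 10 circled genes are named in the text.

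The lingual part of the cap stage was also cultured for 2 days, the span that separates the stages in vivo. Bell-L and Cap-L+2D were compared directly. This comparison shares its Bell-L libraries with that of the stages, so the values are set side by side. Of 21425 genes tested, 3593 were higher in Bell-L and 3091 higher in Cap-L+2D, together 31.2%. Of 27 mitosis genes 26 were higher in Bell-L, such as Mki67 at 349.7 ± 1.38 CPM against 126 ± 1.88 in culture (log2 Bell-L over Cap-L+2D 1.48, edgeR adjusted p = 3.81e-20). Of 18 mineralization genes, 16 were higher in culture and the others were not called. Dmp1 measured 65.9 ± 1.22 CPM in Cap-L+2D against 1.2 ± 0.144 in Bell-L (log2 -5.78, edgeR adjusted p = 9.98e-28), Spp1 181 ± 2.66 against 1.73 ± 0.203 (log2 -6.7, edgeR adjusted p = 5.64e-31), and the osteocalcin gene Bglap 35.3 ± 0.613 against 0.311 ± 0.0635 (log2 -6.81, edgeR adjusted p = 1.73e-24). Bglap and Bglap2 are near-identical copies and their split is uncertain. Gpnmb, a membrane glycoprotein of osteoblasts and macrophages, and Mmp12, the elastase of macrophages, were at 525 ± 12.8 and 15.5 ± 0.354 CPM in culture against 1.7 ± 0.409 and 0.0591 ± 0.0185 in Bell-L, Mmp12 being under the floor in each bell library. All 11 erythroid genes tested were higher in Bell-L, with Hbb-bs at 8.84 ± 0.836 CPM in culture, and so was Lyve1, at 0.26 ± 0.188. Shh was higher in Bell-L, against 1.41 ± 0.339 CPM in culture (log2 3.32, edgeR adjusted p = 1.53e-18). Some genes that rose from cap to bell were not called in this comparison. Dkk2 stood at 266 ± 6.25, Tnmd at 29.3 ± 2.87 and Rspo2 at 37.4 ± 1.65 CPM in Cap-L+2D, with log2 values of Bell-L over Cap-L+2D of 0.44, -0.12 and -0.37 (edgeR adjusted p = 4.87e-10, 0.145 and 2.72e-06). Alx4, which fell in vivo, measured 100.3 ± 1.26 CPM in culture (log2 -1.89, edgeR adjusted p = 1.58e-22), and 98.8 ± 4.66 in Cap-L.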

How the data were processed

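The authors counted read pairs with featureCounts 2.0.0 over the exons of Ensembl 107 (GRCm39), without a strand setting, so a gene and its antisense partner cannot be told apart, and deposited raw counts per gene. Pairs with several map positions, or in overlapping genes, were left out. The submitters' processing notes name FastQC 0.12.1, Trimmomatic 0.39, Bowtie 1.2.3, Subread 2.0.3 and DESeq2 1.40.2, whereas the study's methods name other tools for trimming and alignment, so the aligner behind the table is uncertain. Gene names came from Ensembl 116, which named 56017 of 56748 identifiers.

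Counts of Cap-L and Bell-L were fitted in R 4.3.3 with edgeR 4.0.16 (TMM, filterByExpr, robust quasi-likelihood test, Benjamini-Hochberg adjustment), with the buccal libraries added for the interaction of stage and side. An exact permutation test of 3 against 3 libraries cannot go below p = 0.10. The script was tested on simulated data. Alternatives included DESeq2 1.42.0, other filters and scalings, the replicate number as a block and leaving out each library.

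Named genes were the 10 largest changes per direction among called genes of an average log2 CPM from 2 upward with no overlap, per list the 3 largest called changes in each direction and the 2 highest means, genes the study takes up for the stages or the lingual part, of which not all are given, and 5 per direction for the interaction and for culture, of which some are given. Gli1, Gli3, Sufu, Gas1, Cdon, Boc, Myf6, Matn1, Dspp, Mepe and Sost were named in addition after their values were seen. The same holds for the interaction values of Sp7, Runx2, Dkk2, Tgfb2, Fgf3, Shh, Hhip, Ptch1 and Hbb-y. It also holds for the culture values of Mki67, Dmp1, Shh, Dkk2, Tnmd, Rspo2 and Alx4, and for the lists given in both comparisons. The comparison and the 35 gene lists were chosen with earlier results of these data known. Some members of the lists are not reported here by name.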

Additional observations from a re-analysis of the deposited data

Results flagged for a closer look

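Changes that differed between the lingual and the buccal part by the interaction test were marked for a closer look, 3973 genes that rose more and 3188 that rose less in the lingual part. The receptor genes Avpr1a (4.94 log2) and Mrgprf (3.95), the muscle gene Mybpc1 (4.61), Scg2 (3.83) and Shisa9 (3.75) had the largest positive differences among the genes named by rule. Prdm16 (-3.36 log2), Mmp13 (-3.26), Col9a1 (-2.86), Tnxb (-2.76) and Insyn2b (-2.7) had the largest negative ones. Mybpc1 and the skeletal muscle list moved in the same direction in the lingual part, and the part of muscle cells in its value was not tested. With 3 libraries a group, single libraries were not tested for standing apart.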

How the results depend on the processing

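With no limit on the fold, 5415 genes were higher at the bell stage and 5017 at the cap stage, and with an absolute log2 fold change over 1 there were 1518 and 370. Leaving out each library in turn gave 2903 to 3013 and 1155 to 1306 genes, and 3278 genes were called each time. DESeq2 called 2697 and 1072 genes, of which 3752 were shared with edgeR. Without 1 lingual library, the interaction with side held 3649 to 3952 and 2753 to 3566 genes, and Bell-L against Cap-L+2D held 3511 to 3622 and 3050 to 3125 without 1 library.

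The deviations of same-numbered libraries of the stages had correlations of -0.31, -0.21 and -0.02 over 12368 genes. Libraries of unlike number reached 0.25 (Cap-L 1 with Bell-L 2). Deviations were taken from the mean of 3 libraries, which ties these values together, so they cannot settle whether the numbers pair the libraries. With the replicate number as a block, 2938 and 1235 genes were called between the stages, 3831 and 3066 in the interaction and 3575 and 3066 against culture. Of 230 genes tested among those named in the text, none reversed in the alternatives that tested them (209 genes with at least 10 counts in every library, 213 without the 100 most abundant genes, 230 in the others). Of them, 70 lost their call with an absolute log2 fold change over 1, 9 lost their call when all 24 libraries shared 1 fit, 2 with DESeq2 and 2 to 6 without 1 library.

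Values near the floor, such as those of Shh and Fgf4 at the cap stage, rest on few counts, and the floors cover counting error only. Cap-L 2 stood farthest from the other Cap-L libraries, with a median absolute log2 difference of 0.0964 against 0.0592 and 0.0705. In the fit of the stages, edgeR's common coefficient of variation between libraries of a group was 0.046. Whether this small spread covers separate litters is not known.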
